A study of Mus musculus with 4 samples.

Results

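Intermediate filament genes were followed in 4 mouse libraries: 8 genes, picked by symbol from 49997 gene rows per library. They comprise 3 filaments of progenitor cells, nestin (Nes), vimentin (Vim) and synemin (Synm), and 5 filaments of neurons, the light, medium and heavy neurofilament subunits (Nefl, Nefm and Nefh), alpha-internexin (Ina) and peripherin (Prph). Expression values played no part in the rule, which is a list of names, but the list was drawn up with earlier results of these data known. The cells were iMOPs, an immortalized mouse line of inner ear progenitors that can give rise to several cell types, with a wild-type genotype, so every library comes from 1 line. The proliferating group (2 libraries) grew in DMEM/F12 with B27, carbenicillin and basic FGF at 20 ng/ml. The neuron group (2 libraries) was derived from the same line and grew in Neurobasal medium with N21, glutamine and K03861 at 1 µM, a compound that inhibits the cell cycle kinase CDK2. No time of differentiation is given in the sources used here. RNA was depleted of ribosomal RNA before stranded sequencing. Both replicate 2 libraries are titled as set 2, and replicate numbers are taken here as pairs.

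Intermediate filaments are rope-like polymers that give a cell mechanical strength. Vimentin polymerizes by itself, and nestin and synemin are long partners that are built into filaments with vimentin or a relative of it. Dividing neural and otic progenitors typically hold nestin and vimentin. Maturing neurons typically replace them with alpha-internexin and peripherin and then with neurofilaments, which widen axons, and in the cochlea the neurons of the spiral ganglion carry neurofilaments and, in one subtype, much peripherin. The comparison of neurons with proliferating cells therefore bears on how far this exchange is visible in the transcripts.

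Nes and Vim are by far the most abundant members and, in the replicate 2 libraries, the members that differed most between the groups relative to counting error. Their promoters are shown for that reason. Promoter entries in the RefSeq table were found for 5 of the 8 members (Nes, Vim, Synm, Ina and Prph). The stretches below are the 250 bases before the start of transcription, 5′ to 3′, from GRCm38.p6, on the plus strand, at chr3:87970843-87971092 for Nes and chr2:13574061-13574310 for Vim. Capitals mark matches on either strand to the core letters of 3 promoter elements, the TATA box (letters TATAAA), the CCAAT box (named for its letters) and the GC box (letters GGGCGG).
Nes: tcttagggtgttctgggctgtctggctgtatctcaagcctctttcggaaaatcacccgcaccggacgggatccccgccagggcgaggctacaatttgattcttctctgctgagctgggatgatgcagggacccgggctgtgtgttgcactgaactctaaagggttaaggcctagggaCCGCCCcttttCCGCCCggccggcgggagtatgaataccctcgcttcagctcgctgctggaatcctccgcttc
Vim: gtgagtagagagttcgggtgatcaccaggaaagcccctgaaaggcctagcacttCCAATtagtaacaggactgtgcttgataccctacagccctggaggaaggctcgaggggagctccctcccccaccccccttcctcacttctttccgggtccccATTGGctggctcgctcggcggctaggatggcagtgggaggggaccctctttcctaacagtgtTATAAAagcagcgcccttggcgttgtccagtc
The Nes stretch held 2 GC boxes, starting 73 and 62 bases before the start of transcription, and no match to either of the other elements. The Vim stretch held a TATA box 32 bases before the start and CCAAT boxes at 196 and 94 bases, and no match to the GC box letters. Among 32851 promoter windows of that length, 12.4% held the TATA box letters, 33.8% those of the CCAAT box and 32.7% those of the GC box. Neither stretch matched the E-box letters CANNTG, which 66.2% of windows held. The GC content of 58.8% for Nes and 58.4% for Vim lay above the median window (52.4%). A match is only a description of the letters.

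The depth was 7446361 to 14484011 counts per library. One row, an 18S ribosomal RNA gene, took 53.3% and 75.0% of them in proliferating replicates 1 and 2. In neuron replicates 1 and 2 it took 59.4% and 76.1%. Without that row, proliferating replicate 2 kept the fewest counts, 2595578 against 3461544 to 3850766 in the other libraries. It also had the fewest genes with a count, 17762 against 20012 to 21637. Levels are given as CPM, counts scaled to a common library size with TMM factors, and, where genes of unequal length are compared, as the authors' RPKM, which is per kilobase as well. The members together made up 0.124% and 0.332% of the counts without the 18S row in proliferating replicates 1 and 2, and 0.106% and 0.0741% in neuron libraries 1 and 2. Neuron markers were present in every library, and their sums overlapped between the groups: 8 markers (Elavl3, Elavl4, Tubb3, Map2, Rbfox3, Snap25, Stmn2, Syp) summed to 139 and 335 CPM in proliferating libraries 1 and 2, against 178 and 328 CPM in neuron libraries 1 and 2. Of these, 5 had a log2 fold change above 0 and 3 below, and 0 were called. Elavl4 and Map2 were higher in neurons in both pairs, where 3684 of 12783 tested genes were. Stmn2 was lower in both, but with only 4 against 3 counts in the replicate 1 pair, which shows no direction. Snap25 was also scarce, with 2 counts in neuron replicate 1. The pairs went opposite ways for Elavl3, Tubb3, Rbfox3, Snap25 and Syp. Cycling cell markers (Mki67, Top2a, Cdk1, Ccnb1, Aurkb) summed to 288 and 45.9 CPM in proliferating libraries 1 and 2. In neuron libraries 1 and 2 they summed to 367 and 198 CPM, so proliferating replicate 2 was the lowest for genes of dividing cells. All 5 had a log2 fold change above 0, with 0 called. All but Ccnb1, 4 of the 5, were higher in neurons in both pairs, where 3684 of 12783 tested genes were. The 7 otic progenitor markers summed to 76.4 and 110.1 CPM in the proliferating libraries and to 70.2 and 32.3 CPM in the neuron libraries. Pax2 and Pax8 were at 0 counts in all 4 libraries, and 3 of the 7 were tested, with 0 called. Sox2 had 362 and 355 counts while proliferating, against 402 and 216 as neurons (29.7 and 48.1 CPM against 33.8 and 22.0 CPM). Sox9 had 496 and 429, against 320 and 41 (40.8 and 58.1 CPM against 26.9 and 4.18 CPM). Eya1 had 62 and 27, against 103 and 57 (5.09 and 3.65 CPM against 8.66 and 5.81 CPM).

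No member passed the test between the groups. Of the 8 genes, 7 had enough counts for the edgeR quasi-likelihood test, and 0 of them were called at an adjusted p-value under 0.05, against 0% of 12783 tested genes in either direction. At an unadjusted p-value under 0.05 there was 1 member, Vim, while 3.43% of tested genes passed that level. DESeq2 called 0 members too, against 0.462% of tested genes. The fitted log2 fold change was above 0 for 4 tested members and below 0 for 3, with a median of 0.08, against a median of 0.02 over all tested genes. The replicate pairs went opposite ways for 5 of the 7 tested members and the same way for 2 (Vim and Ina), where 45.7% and 54.3% of all tested genes did so. For all 7, the log2 difference between the 2 proliferating libraries was larger than the fitted log2 fold change, which held for 71.9% of tested genes.

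**Figure D1:**
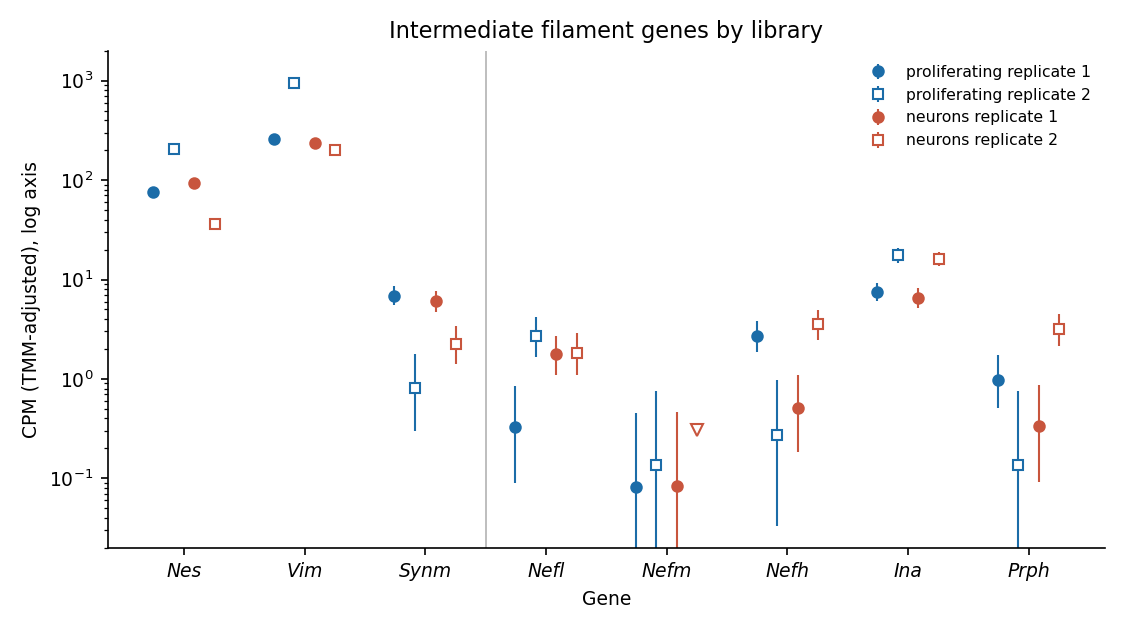
CPM of the 8 genes in each library on a log axis, with 95% exact Poisson intervals of the counting error (blue, proliferating; red, neurons; filled circles, replicate 1; open squares, replicate 2; the open triangle is the level of 3 counts for Nefm, which had 0 counts in neuron replicate 2). The grey line separates the progenitor filaments from the neuronal ones, and Vim is the gene whose neuron values both lie below its proliferating values.

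Vimentin, the main filament protein of the progenitors, was the highest member in all 4 libraries per length. The gene lies at chr2:13574311-13582826 on the plus strand (GRCm38.p6 by RefSeq) and has 9 exons in its longest coding transcript. It had 3154 and 6939 counts in proliferating replicates 1 and 2 and 2800 and 1947 counts in neuron replicates 1 and 2. Its level was 259 and 939 CPM in the proliferating libraries and 236 and 198 CPM in the neuron libraries. The groups did not overlap, and 14.5% of tested genes were lower in neurons without overlap. Proliferating replicate 1 lay close to the neurons, while proliferating replicate 2 stood far above the other 3 libraries. The group means were 599 ± 481 CPM (SD, n = 2) for the proliferating state and 217 ± 26.2 CPM (SD, n = 2) for the neurons. In the edgeR fit the log2 fold change was -1.47 with SE 0.62, at an unadjusted p-value of 0.048 and an adjusted p-value of 0.9998. With the replicate number as a block, edgeR gave -1.19 and an adjusted p-value of 0.818.

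The Vim difference lay in the replicate 2 pair. There it was 4.73-fold lower in neurons (95% counting interval 4.50 to 4.98), while in the replicate 1 pair it was 1.10-fold lower (1.05 to 1.16). Without proliferating replicate 2 the log2 fold change was -0.24, and without proliferating replicate 1 it was -2.14, with an edgeR adjusted p-value of 0.031. That last fit has 1 proliferating library, whose spread is assumed to be like that of the neurons, and it called 0.845% of its tested genes. In bulk RNA, fewer cells that hold a transcript and less of it per cell cannot be told apart. Mesenchymal cells are also rich in vimentin. Their 8 markers summed to 10.8 and 10.2 CPM in the proliferating libraries and to 17.9 and 7.95 CPM in the neuron libraries. Pdgfra made up most of this, with 119 and 66 counts against 200 and 70 (9.78 and 8.93 CPM against 16.8 and 7.14 CPM). Twist1 had 0 to 9 counts per library, Col1a1 0 to 8, Col3a1 0 to 4 and Lum 0 to 1, and Col1a2, Pdgfrb and Dcn were at 0 in all 4 libraries. The part of such cells in the Vim values was not tested.

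Nestin, the large partner of vimentin and a customary marker of neural progenitors, was the next member in order. It lies at chr3:87971093-87980451 on the plus strand, with 4 exons. Its counts were 918 and 1530 in proliferating libraries 1 and 2, against 1118 and 353 in neuron libraries 1 and 2. This was 75.4 and 207 CPM while proliferating, against 94.0 and 36.0 CPM as neurons, so the groups overlapped, with neuron replicate 1 above proliferating replicate 1. The means were 141 ± 93.1 CPM and 65.0 ± 41.1 CPM (SD, n = 2 each), with an edgeR log2 fold change of -1.12 (SE 0.67, adjusted p-value 0.9998). Within pairs, Nes was 1.25 times as high in neurons in replicate 1 (95% counting interval 1.14 to 1.36) and 5.76-fold lower in replicate 2 (5.12 to 6.48). Leaving out proliferating replicate 2 gave a log2 fold change of -0.20 and leaving out proliferating replicate 1 gave -1.69. Leaving out neuron replicates 1 and 2 in turn gave -2.02 and -0.59.

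Nes and Vim were both lower in neurons in the replicate 2 pair, where their log2 differences of -2.52 and -2.24 (prior count of 2) stood at percentiles 1.39 and 1.78 of all tested genes. In the replicate 1 pair their log2 differences of 0.32 and -0.14 stood at percentiles 72.8 and 40.1. Their proportion to each other also depended on the pair. Nes made up 22.5% of the summed Nes and Vim counts in proliferating replicate 1 (95% Wilson interval 21.3% to 23.9%), against 28.5% (27.1% to 30.0%) in neuron replicate 1. In the second pair it made up 18.1% in proliferating cells (17.3% to 18.9%) and 15.3% in neurons (13.9% to 16.9%). The share was thus higher in neurons in one pair and lower in the other, in each case with intervals that do not touch, and these intervals cover counting error only.

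Synemin, a long filament protein that links vimentin networks to other structures, was far scarcer. Synm lies at chr7:67730161-67759742 on the minus strand. It had 84 and 6 counts in proliferating libraries 1 and 2, against 72 and 22 counts in neuron libraries 1 and 2. The replicate 1 libraries were high and the replicate 2 libraries low: 6.90 and 0.812 CPM in proliferating replicates 1 and 2, and 6.06 and 2.24 CPM in neuron replicates 1 and 2. Proliferating replicate 1 was 8.50-fold above proliferating replicate 2 (95% counting interval 3.74 to 23.8), the reverse of the order of Nes and Vim in these 2 libraries. The edgeR log2 fold change was 0.08 (SE 0.93, adjusted p-value 0.9998), and -0.38 when library size alone set the scale, a scale that moved the median over all genes by -0.29. Leaving out proliferating replicate 1 gave 2.32 and leaving out neuron replicate 2 gave 0.63, while the fits without proliferating replicate 2 and without neuron replicate 1 gave -0.71 and -0.83. Part of Synm overlaps Ttc23 on the other strand (24 to 210 counts), and whether strand was used in counting is not given in the sources used here.

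**Figure D2:**
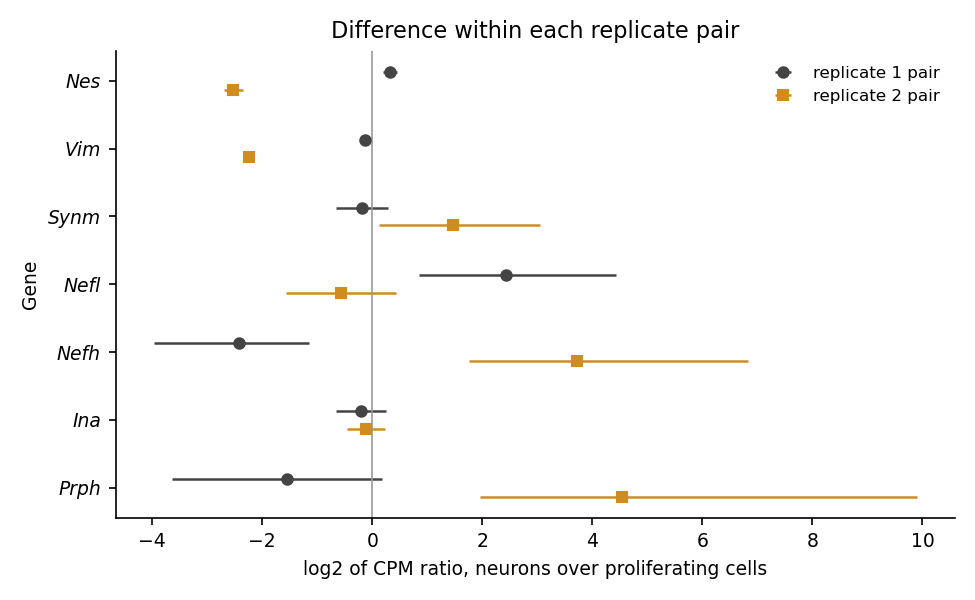
Log2 ratio of CPM in neurons over proliferating cells within each replicate pair, with 95% exact counting intervals (grey circles, replicate 1; orange squares, replicate 2; Nefm is left out for its 3 counts in all). Nes and Vim lie far below 0 in the replicate 2 pair and close to 0 in the replicate 1 pair, while Nefh and Prph lie on opposite sides of 0.

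The neurofilament triplet, which fills mature axons, was scarce in both groups. Nefl, Nefm and Nefh together had 38 and 23 counts in proliferating libraries 1 and 2, against 28 and 53 counts in neuron libraries 1 and 2. Nefm had 1 count in 3 libraries and 0 in neuron replicate 2, where 3 counts would be 0.306 CPM, and it was not tested. Nefl and Nefm are neighbours on chromosome 14 of GRCm38.p6, at chr14:68083863-68089095 on the plus strand and chr14:68119545-68125004 on the minus strand by RefSeq, 30449 bases apart. A longer Nefm transcript in GENCODE M21 overlaps Nefl on the opposite strand.

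Nefl, the light subunit that neurofilaments need to assemble, had 4 and 20 counts in proliferating libraries 1 and 2, against 21 and 18 in neuron libraries 1 and 2. That was 0.329 and 2.71 CPM while proliferating, against 1.77 and 1.83 CPM as neurons, so 3 libraries were alike and proliferating replicate 1 was low. In the replicate 1 pair Nefl was 5.37 times as high in neurons (95% counting interval 1.81 to 21.5), and in the replicate 2 pair 0.678 times (0.338 to 1.35). The edgeR log2 fold change was 0.30 (SE 0.97, adjusted p-value 0.9998), 2.43 without proliferating replicate 2 and -0.62 without proliferating replicate 1.

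Nefh, the heavy subunit with a long phosphorylated tail that marks mature axons, gave the opposite pattern. It lies at chr11:4938754-4948064 on the minus strand. It had 33 and 2 counts in proliferating libraries 1 and 2, against 6 and 35 in neuron libraries 1 and 2, or 2.71 and 0.271 CPM against 0.505 and 3.57 CPM. The high libraries were proliferating replicate 1 and neuron replicate 2, so the ranges of the groups overlapped widely. It was 5.37-fold lower in neurons in the replicate 1 pair (95% counting interval 2.22 to 15.7) and 13.2 times as high in the replicate 2 pair (3.39 to 113). The edgeR log2 fold change of 0.37 (SE 1.16, adjusted p-value 0.9998) was -0.57 with library size alone, -0.41 without proliferating replicate 2 and -1.58 without neuron replicate 2. Leaving out proliferating replicate 1 gave 2.79 and leaving out neuron replicate 1 gave 1.17.

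Alpha-internexin, the filament of young neurons that appears before the triplet, was the most abundant neuronal member. It lies at chr19:47014681-47025327 on the plus strand. Ina had 92 and 129 counts in proliferating libraries 1 and 2, against 78 and 158 in neuron libraries 1 and 2. Its level was 7.56 and 17.5 CPM while proliferating, against 6.56 and 16.1 CPM as neurons. The replicate 2 libraries were high and the replicate 1 libraries low in both groups. The difference between groups was small within each pair, 1.15-fold lower in neurons in replicate 1 (95% counting interval 0.843 to 1.58) and 1.08-fold lower in replicate 2 (0.852 to 1.38). Between replicates it was larger: replicate 2 was 2.31 times replicate 1 in proliferating cells (1.75 to 3.05) and 2.45 times in neurons (1.86 to 3.26). The edgeR log2 fold change was -0.14 (SE 0.65, adjusted p-value 0.9998), and leaving out proliferating replicate 2 or neuron replicate 1 turned it to 0.60 and 0.32. The other 2 omissions, of proliferating replicate 1 and neuron replicate 2, gave -0.67 and -0.93. In GENCODE M21 Ina overlaps Nt5c2 on the other strand, which had 142 and 81 counts in proliferating cells and 159 and 116 in neurons.

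Peripherin, a filament of peripheral neurons, was rare. It lies at chr15:99053579-99058978 on the plus strand. Prph had 12 and 1 counts in proliferating libraries 1 and 2, against 4 and 31 in neuron libraries 1 and 2, or 0.986 and 0.135 CPM against 0.336 and 3.16 CPM. Neuron replicate 2 was the high library, and the other 3 were at or under 1 CPM. In the replicate 2 pair Prph was 23.3 times as high in neurons (95% counting interval 3.89 to 952), which rests on a single count in proliferating replicate 2. In the replicate 1 pair it was 2.93-fold lower (0.888 to 12.5). The edgeR log2 fold change of 1.51 (SE 1.25, adjusted p-value 0.9998) turned to -0.78 without neuron replicate 2 and reached 2.36 when neuron replicate 1 was left out. Leaving out proliferating replicates 1 and 2 in turn gave 3.51 and 0.82.

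Per length, the first places in the order of members were the same in every library: Vim, then Nes, then Ina. In RPKM, Vim stood at 231 and 365 in proliferating libraries 1 and 2, against 161 and 73.3 in neuron libraries 1 and 2. Nes stood at 20.1 and 24.1 RPKM while proliferating, against 19.3 and 3.98 RPKM as neurons. Ina stood at 3.79 and 3.82 RPKM, against 2.53 and 3.35 RPKM, the narrowest range of the 3. In neuron replicate 2, Nes (95% counting interval 3.57 to 4.42 RPKM) and Ina (2.85 to 3.91 RPKM) could not be told apart by counting error, while in the other libraries the intervals of these 3 genes lay apart. Below Ina the order varied. The other 5 members stood at 0 to 1.11 RPKM, with Nefh leading them in proliferating replicate 1 and neuron replicate 2, and Nefl in the other libraries. The length behind the deposited RPKM is 19339 bases for Synm and 11346 for Prph, well above their longest coding transcripts in GENCODE M21 (7818 and 1863 bases), so their RPKM levels are understated. With the latter lengths Synm came next after Ina in both replicate 1 libraries, and Prph did so in neuron replicate 2.

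Set against each other, the progenitor filaments outweighed the neuronal ones in both states. Summed RPKM of Nes, Vim and Synm was 48.0 times that of the 5 neuronal filaments in proliferating replicate 1 and 86.9 times in proliferating replicate 2. It was 53.0 times in neuron replicate 1 and 17.1 times in neuron replicate 2. The neuron libraries thus lay on either side of proliferating replicate 1. The log2 ratio was 6.01 ± 0.61 in proliferating cells and 4.91 ± 1.15 in neurons (SD, n = 2 each), and the difference of means, -1.10, was smaller than the SD of the neurons. It was -0.29 without neuron replicate 2, -0.67 without proliferating replicate 2, -1.53 without proliferating replicate 1 and -1.91 when neuron replicate 1 was left out. An exact permutation test of 2 against 2 libraries cannot go below a two-sided p of 0.33, so it was not run.

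That difference lay in the replicate 2 pair. There the log2 ratio differed by -2.34, with the progenitor sum at 389 RPKM in proliferating cells and 77.4 RPKM in neurons and the neuronal sum at 4.47 and 4.51 RPKM. The neuronal sum is mostly Ina, and within it Nefh stood at 0.0483 and 0.605 RPKM and Prph at 0.00849 and 0.189 RPKM in this pair. Against the triplet of Nefl, Nefm and Nefh alone, the log2 ratio differed by -2.91 in the replicate 2 pair and by 0.15 in the replicate 1 pair. In the replicate 1 pair the log2 ratio differed by 0.14, with sums of 252 and 181 RPKM for the progenitor filaments and 5.25 and 3.41 RPKM for the neuronal ones. RPKM divides by totals that include the 18S row, so the sums, unlike the ratios, also carry the 18S share of each library. In CPM, Vim stood at 259 and 236 and Nes at 75.4 and 94.0 in this pair (proliferating, then neurons). As a share of all member counts, the neuronal filaments made up 3.30% in proliferating replicate 1 (95% Wilson interval 2.81% to 3.88%), against 2.68% (2.23% to 3.22%) in neuron replicate 1, which overlap. They made up 1.77% in proliferating replicate 2 (1.52% to 2.07%) and 9.44% in neuron replicate 2 (8.37% to 10.6%). Ina alone was 72.3% to 85.3% of the neuronal sum in RPKM, and Vim 87.5% to 92.7% of the sum over all members.

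**Figure D3:**
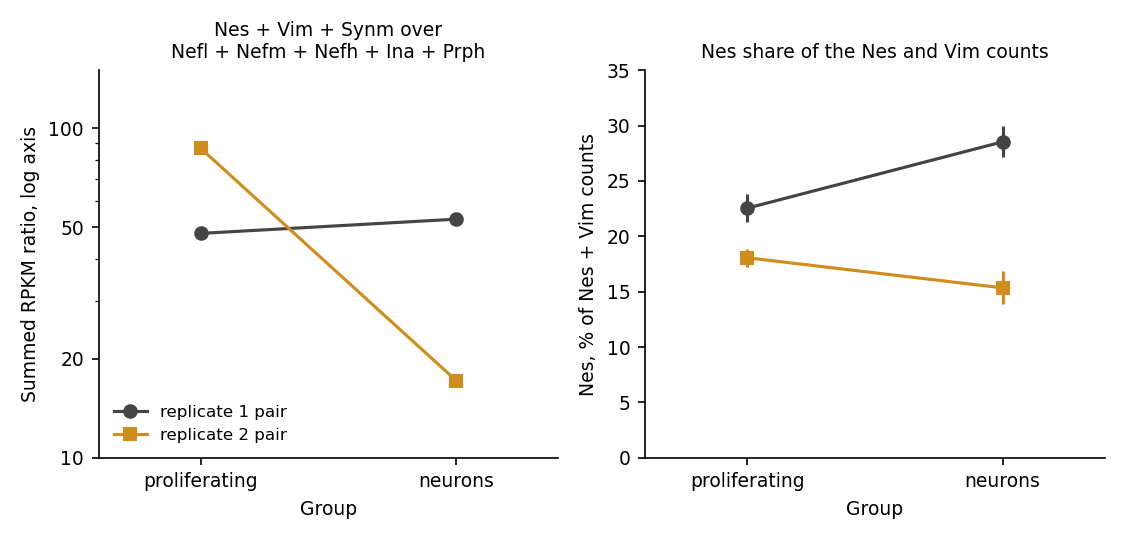
Left, ratio of summed RPKM of the 3 progenitor filaments to the 5 neuronal filaments on a log axis; right, Nes as a percentage of Nes and Vim counts with 95% Wilson intervals. Lines join the libraries of a replicate pair; the ratio stayed near 50 in replicate 1 (48.0 and 53.0) and went from 86.9 to 17.1 in replicate 2.

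Other filament genes gave the members a frame. Of 20 further intermediate filament genes, 7 were tested, 2 with a log2 fold change above 0 and 5 below (median -0.28), and 0 were called. Of 10 keratin genes, the filaments of epithelia, 7 were at 0 counts in all 4 libraries. Gfap, the filament of astrocytes and a close relative of vimentin, separated the groups more than any member did: 181 and 89 counts in proliferating libraries 1 and 2, against 1 and 2 in neuron libraries 1 and 2. It was 177-fold lower in neurons in replicate 1 (95% counting interval 31.3 to 7021) and 59.1-fold lower in replicate 2 (15.9 to 495). The edgeR adjusted p-value of Gfap was 0.11. With the replicate number as a block it was 0.016, in a fit that called 0.0235% of tested genes and 0 members. Gfap was a result known when this list was drawn up.

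The lamins, which line the nucleus, are of an A type and a B type. Lmna, the lamin of differentiated and stiff tissues, had 109 and 741 counts in proliferating libraries 1 and 2, against 57 and 100 in neuron libraries 1 and 2. It resembled Vim in being highest in proliferating replicate 2, with 8.96 and 100.3 CPM while proliferating, against 4.79 and 10.2 CPM as neurons, so the groups overlapped. Its edgeR log2 fold change was -2.86 (SE 1.04, adjusted p-value 0.9998). Of the B-type lamins, which nearly all cells express, Lmnb1 had a log2 fold change of 0.04 (SE 0.43) and Lmnb2 one of -0.08 (SE 0.52), at the same edgeR adjusted p-value.

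Plakins are giant linkers that tie intermediate filaments to the rest of the cytoskeleton. Of 7 plakin genes, 4 were tested, 1 with a log2 fold change above 0 and 3 below (median -0.84), and 0 were called. Plec, the plectin that cross-links vimentin, had 1619 and 2613 counts in proliferating libraries 1 and 2, against 807 and 907 in neuron libraries 1 and 2. Its level was 133 and 354 CPM against 67.9 and 92.5 CPM, so the groups did not overlap, and 14.5% of tested genes were lower in neurons without overlap. Plec was lower in neurons in both pairs, 1.96-fold (95% counting interval 1.80 to 2.13) in replicate 1 and 3.83-fold (3.55 to 4.13) in replicate 2. Of all 12783 tested genes, 3262 were lower in both pairs. Its edgeR log2 fold change of -1.602 (SE 0.57) had an unadjusted p-value of 0.025 and an adjusted p-value of 0.9998. Of the 4 tested plakins, 2 (Plec and the scarce Ppl) were lower in neurons in both pairs. Dst and Macf1 were lower in the replicate 1 pair and higher in the replicate 2 pair. Their log2 differences were -0.22 and 0.85 for Dst, and -0.84 and 1.07 for Macf1.

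**Figure D4:**
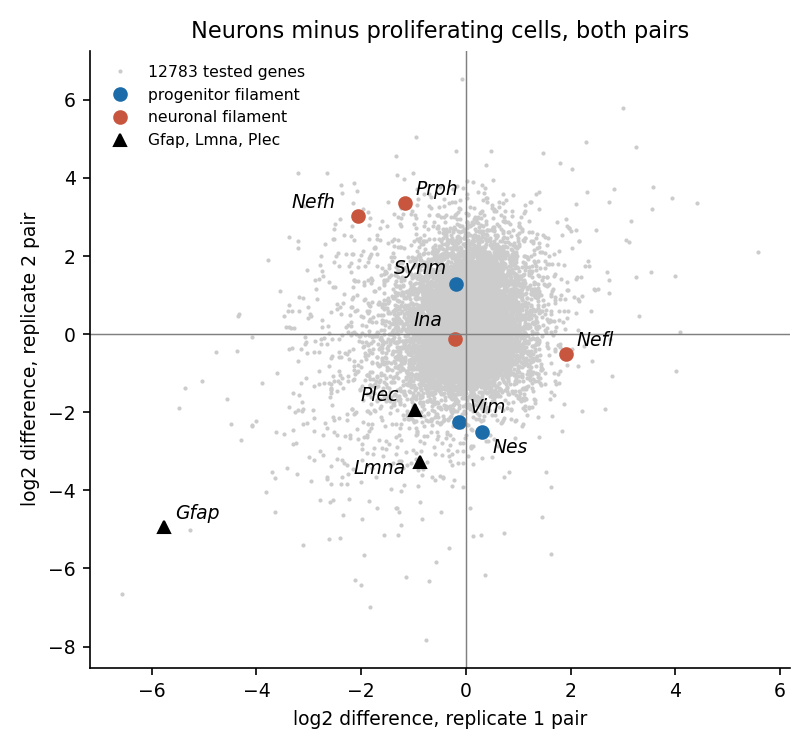
Log2 difference of CPM (prior count of 2), neurons minus proliferating cells, in the replicate 1 pair (horizontal) and the replicate 2 pair (vertical) for all 12783 tested genes in grey, with 7 members as circles and Gfap, Lmna and Plec as triangles. Nes and Vim lie low on the vertical axis and near 0 on the horizontal one, and Gfap lies at -5.76 and -4.94, low on both.

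Markers of astroglia are given beside Nes and Vim since such cells can hold both. The 6 astroglia markers (Gfap, Slc1a3, Aldh1l1, Aqp4, S100b, Fabp7) summed to 159.8 and 111 CPM in proliferating libraries 1 and 2, against 68.2 and 17.7 CPM in neuron libraries 1 and 2. Of them, 4 were tested, all with log2 fold changes below 0 and 0 called, against 0% of all tested genes. In both pairs, 3 of the 4 were lower in neurons, where 3262 of 12783 tested genes were. The exception was Aqp4, with 356 and 2 counts in proliferating cells against 31 and 5 in neurons. S100b was at 0 in both replicate 2 libraries and Aldh1l1 in neuron replicate 2. Radial glia and immature astrocytes hold nestin and vimentin as well. The part of such cells in the Nes and Vim values was not tested. Markers of Schwann cells and oligodendrocytes summed to 0.406 to 0.575 CPM per library, and those of epithelium, hair cells, endothelium and macrophages to 0 to 1.48 CPM per list and library.

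The genes whose pattern over the 4 libraries was most like that of a member were found by the root mean square distance of centred log2 CPM, among the 7294 other tested genes whose counts averaged 50 or more. For Nes they were Erf (distance 0.11), Akna (0.18) and Glipr2 (0.19), and Vim came at rank 70 (0.43). For Vim they were Bysl (0.079), Creld2 (0.098) and Trim8 (0.13). For Nefl they were Rnf122 (0.13), Sema5b (0.26) and Adgrg1 (0.32), among 7295 genes since Nefl itself lies under that count. Erf had 225 and 348 counts in proliferating libraries 1 and 2, against 221 and 75 in neuron libraries 1 and 2. With 4 libraries a short distance does not show a link between genes, and the list describes these libraries.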

How the data were processed

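RNA counts and RPKM values deposited by the authors were used for 4 libraries of total RNA. The counts are whole numbers per gene, 1 file per library, not normalized. Per the submitters' processing notes, HISAT2, SAMtools, featureCounts, DESeq2 and deepTools 3.4.3 were used with mm10; roles, annotation, strand setting and the treatment of reads with several matches are not given in the sources used here. The deposited RPKM equals the count over the column total, 18S row included, and over 1 length per gene. Columns of other series numbered 0. Groups and replicate numbers came from the titles. What separates biological replicates is not stated, so p-values measure the spread between these libraries.

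Counts were tested with edgeR 4.0.16 in R 4.3.3 (TMM, filterByExpr with a minimum count of 10 and total of 15, estimateDisp, glmQLFit, glmQLFTest, group as the single term, 4 libraries), with Benjamini-Hochberg adjustment over all 12783 tested genes, two-sided, threshold 0.05. SE is the log2 fold change over the square root of F. The fit was tested on simulated data. Log2 CPM uses a prior count of 2. Counting intervals (95%) are exact Poisson for levels, exact conditional binomial for ratios and Wilson for shares, cover counting error only, and the limit for a count of 0 is 3 counts. Python 3.11.15 with scipy 1.17.1 was used for these. Both replicate 2 titles carry a set number, so replicate numbers were taken as pairs; across genes, the departures of paired libraries from the mean of their own group correlated at r = 0.33. The fit with that number as a block was an alternative.

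Members and lists were chosen with earlier results of these data known. Any member and any gene of the lists of other filaments, plakins, filament turnover and transport, and cell type markers could be named, plus the 3 genes most alike to Nes, Vim and Nefl. Positions and promoters are RefSeq's, on GRCm38.p6; lengths and overlaps are GENCODE M21's. Alternatives were RLE factors (edgeR), library size alone, DESeq2 1.42.0, no gene filter, a CPM filter, limma 3.58.1 on log2(RPKM + 1) and log2(RPKM + 0.1), the 18S row left out, a block for the replicate number, and each library omitted in turn. For the class ratio they were raw counts, class means, Vim left out and the triplet alone. Lengths of the longest coding transcript were an alternative added after seeing the data.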

Additional observations from a re-analysis of the deposited data

How the results depend on the processing

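Nes and Vim kept log2 fold changes below 0 under every alternative run. Apart from fits that leave out a library, Nes lay between -1.31 and -0.93 and Vim between -1.48 and -1.19, and 0 members were called. Leaving out a library gave 0 to 1 called members lower in neurons (Vim, without proliferating replicate 1) and 0 higher. In those fits the log2 fold changes ranged from -2.02 to -0.20 for Nes, -2.14 to -0.24 for Vim, -0.83 to 2.32 for Synm, -0.62 to 2.43 for Nefl, -1.58 to 2.79 for Nefh, -0.93 to 0.60 for Ina and -0.78 to 3.51 for Prph. Synm turned to -0.38 with library size alone, -0.059 with log2(RPKM + 1) and -0.0061 with log2(RPKM + 0.1), and Nefh to -0.57 with library size alone and -0.13 with log2(RPKM + 1). Under these 3 scalings the median over all genes moved by -0.29, -0.088 and -0.17.

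Over all genes, 0 were called in each direction (438 at an unadjusted p-value under 0.05) by edgeR, and 0 with RLE factors or the 18S row left out. The CPM filter kept as many genes. DESeq2 called 12 higher and 47 lower, and no gene filter 41 higher and 122 lower. Library size alone gave 2 lower, log2(RPKM + 1) 1 lower, log2(RPKM + 0.1) 2 lower and the replicate block 3 lower. Leaving out a library gave 3 to 29 higher and 11 to 84 lower. The causes were not tested. The replicate block changed no call of a member. The difference in the log2 ratio of progenitor to neuronal filaments, -1.10, stayed below 0 under all alternatives. It was -1.11 with raw counts, -0.95 with class means, -1.02 without Vim and -1.38 against the triplet. With lengths of the longest coding transcript it was -1.17, and without 1 library -1.91 to -0.29. The SD of the pair differences (1.76) is larger than the difference itself, so shifts smaller than that SD do not show stability. The replicate 1 pair alone gave 0.14. Depth limits Nefl, Nefm, Nefh and Prph, at 0 to 35 counts per library.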

Other observations

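Genes that modify, turn over or move intermediate filaments were not called, in a fit that called 0% of all 12783 tested genes. Of 16 such genes, 15 were tested, 10 with a log2 fold change above 0 and 5 below (median 0.26). Of these 15, edgeR called 0, and 0 had an unadjusted p-value under 0.05, a level that 3.43% of all tested genes passed. In the replicate pairs 7 of the 15 were higher in neurons in both and 2 lower in both, where 3684 and 3262 of all 12783 tested genes were. Trim2, a ubiquitin ligase for the light neurofilament subunit, had 234 and 81 counts in proliferating libraries 1 and 2, against 335 and 242 in neuron libraries 1 and 2, a log2 fold change of 0.80 (SE 0.49). The kinesin genes Kif5a and Kif5c, whose motors carry neurofilaments along axons, had 41 and 75 and 294 and 118 counts in proliferating cells, and 18 and 111 and 246 and 405 in neurons.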
